A study of Mus musculus with 2 samples.

Results

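The 10 genes described here mark eosinophils and neutrophils, the 2 main granulocytes of blood and inflamed tissue. They were picked by symbol from the 31053 genes of the count tables, and earlier results of these data were known when they were picked. Retnlg, S100a8, S100a9, Mmp9 and Il1r2 are called the neutrophil genes below, Siglecf, Il5ra and Prg2 the eosinophil genes, and Cebpe and Cd24a belong to both lineages. Single-cell RNA was measured in 2 libraries of C57BL/6 mouse retina, aged 6 to 8 weeks, at the 2-week time point of the labels. The labels place both groups after optic nerve injury, so no uninjured retina was analysed here. Mice of 1 library were given PBS and those of the other MSC-sEV, as the labels name the treatment. Each library held the retinas of 6 mice in 1 pool, enriched on CD45 beads, so each group has 1 library, no difference has a replicate check, and no test between mice was possible.

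Neutrophils and eosinophils both mature in bone marrow from myeloid precursors and enter tissue when chemokines call them. Neutrophils follow ligands of the receptor CXCR2 and depend on the growth factor receptor encoded by Csf3r. Eosinophils follow eotaxins through the receptor CCR3 and depend on interleukin 5. Their mature forms carry different granule proteins, and the transcription factor C/EBP epsilon, encoded by Cebpe, is needed for the late steps in both.

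The promoter sequences of 3 of the genes are printed, chosen by level in groups of barcodes or by lineage. In the results below, their RNA shared cells in part. Retnlg was high in barcodes with Ccr3, S100a9 in barcodes with Cxcr2, and Il5ra is the interleukin 5 receptor gene. Each is the stretch of 250 bases before the RefSeq start in GRCm38.p6, 5′ to 3′ on the gene's strand. Capitals mark matches, on either strand, to TTGCNNAA (a motif of C/EBP factors) or AGATAA (a motif of GATA factors).
Retnlg, chr16:48872358-48872607, plus strand: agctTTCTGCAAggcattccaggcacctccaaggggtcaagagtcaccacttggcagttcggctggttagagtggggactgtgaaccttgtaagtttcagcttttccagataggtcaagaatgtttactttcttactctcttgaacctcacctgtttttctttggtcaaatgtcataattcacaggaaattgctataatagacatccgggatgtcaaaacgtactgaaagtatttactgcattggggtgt
S100a9, chr3:90695722-90695971, minus strand: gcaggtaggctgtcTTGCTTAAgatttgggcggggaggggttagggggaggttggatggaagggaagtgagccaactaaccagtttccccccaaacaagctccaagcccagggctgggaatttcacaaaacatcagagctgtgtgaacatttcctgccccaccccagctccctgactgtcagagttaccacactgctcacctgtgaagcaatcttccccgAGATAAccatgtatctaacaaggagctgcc
Il5ra, chr6:106749038-106749287, minus strand: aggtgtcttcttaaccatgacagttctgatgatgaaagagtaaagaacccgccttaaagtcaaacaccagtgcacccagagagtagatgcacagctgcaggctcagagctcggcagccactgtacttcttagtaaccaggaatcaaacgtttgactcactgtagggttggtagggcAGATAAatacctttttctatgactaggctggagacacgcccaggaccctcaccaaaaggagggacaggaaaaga

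RefSeq promoters were found for 6 of the 10 genes. TTGCNNAA matched in 2 of them, Retnlg and S100a9, and in 9.56% of 32851 windows of this length. AGATAA matched in 2, S100a9 and Il5ra, and in 9.99% of all windows. A TATAAA match was present in S100a8 alone among the 6, and in 12.4% of all windows. None of the printed motifs overlapped another, and a match describes letters and not a bound site.

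Positions are from GENCODE M21 for GRCm38, the build the labels call mm10. All 10 genes are protein coding. S100a8 (chromosome 3, 90668978 to 90670035) and S100a9 (chromosome 3, 90692632 to 90695721) are neighbours on opposite strands. Mmp9 (164940780 to 164955850) and Prg2 (84980461 to 84983632) are both on chromosome 2. Retnlg is on chromosome 16 (48872621 to 48874496), Il1r2 on chromosome 1 (40074079 to 40125231) and Siglecf on chromosome 7 (43351341 to 43359531). Il5ra is on chromosome 6 (106710357 to 106749037), Cebpe on chromosome 14 (54710360 to 54712174) and Cd24a on chromosome 10 (43578284 to 43584265).

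Counts are UMIs, tags that mark single captured RNA molecules. A barcode was kept if it had 500 UMIs or more, 300 genes or more and no more than 15% of its UMIs from mitochondrial genes. This left 1347 PBS barcodes with 8037219 UMIs and a median of 2601, and 2323 MSC-sEV barcodes with 16565276 UMIs and a median of 2920. The libraries shared 0 barcodes. The labels call the cells retinal immune cells, but Ptprc, which encodes CD45, was detected in 5.12% of the PBS barcodes and in 28.4% of the others. No class was named for 6 clusters with Ptprc in under 5% of their barcodes. These 6 are called the unnamed retinal clusters and serve as the background of free RNA, which in droplets reaches cells that do not express a gene. Levels in CPM are a gene's UMIs scaled to 1000000 UMIs of the barcodes summed. Intervals are exact 95% intervals (Clopper-Pearson for shares, Poisson for counts, conditional binomial for ratios). They hold counting error alone and say nothing of how mice or cells vary.

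Nearly all RNA of the 5 neutrophil genes came from the MSC-sEV library. Retnlg, a small secreted protein of the resistin family that is abundant in myeloid cells, was counted 4299 times in MSC-sEV and 0 times in PBS. It was detected in 285 MSC-sEV barcodes (12.3%, 11 to 13.7) and 0 PBS barcodes, where the limit of 3 counts allows a share of up to 0.223%. Against a floor of 3 counts over the PBS library, its level was at least 695-fold higher in MSC-sEV.

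S100a8 and S100a9 encode the paired calcium-binding proteins of calprotectin, a major cytosolic protein of neutrophils. S100a8 had 0 PBS UMIs against 1039 in 53 MSC-sEV barcodes, a level at least 168-fold higher. S100a9 had 1 PBS UMI against 1127 in 50 MSC-sEV barcodes, a ratio of 547 (97.9 to 21617). Both rested on few barcodes, as the 10 with most UMIs held 91.0% of the S100a8 UMIs and 91.2% of the S100a9 UMIs of the MSC-sEV library. For Retnlg the same share was 23.9%.

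Mmp9, a gelatinase stored in neutrophil granules, had 1 PBS UMI against 174 in 92 MSC-sEV barcodes, a ratio of 84.4 (15.0 to 3353). Il1r2, the decoy receptor that takes up interleukin 1 without signalling, had 2 PBS UMIs against 144 in 46 MSC-sEV barcodes, a ratio of 34.9 (9.50 to 291). Neither interval includes equal levels.

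Among the eosinophil genes, Siglecf differed from the rest in having PBS counts. Siglecf encodes a sialic acid receptor used to sort mouse eosinophils. It had 64 UMIs in 41 PBS barcodes (3.04%, 2.19 to 4.11) and 231 UMIs in 154 MSC-sEV barcodes (6.63%, 5.65 to 7.72), a ratio of 1.75 (1.32 to 2.35). Prg2, the gene of major basic protein in eosinophil granules, had 0 and 55 UMIs, the latter in 44 barcodes, and was at least 8.90-fold higher in MSC-sEV. Il5ra, the chain of the interleukin 5 receptor that binds the ligand, had 0 and 16 UMIs, the latter in 14 barcodes, and was at least 2.59-fold higher.

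Both genes of the shared granulocyte program were higher in MSC-sEV. Cebpe had 0 PBS UMIs against 213 in 124 MSC-sEV barcodes, a level at least 34.4-fold higher. Cd24a, a surface glycoprotein of granulocytes and of immature neurons and lymphocytes, had 59 UMIs in 42 PBS barcodes and 1452 in 321 MSC-sEV barcodes, a ratio of 11.9 (9.20 to 15.8).

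With at least 20 UMIs over both libraries required, 9 of the 10 genes entered this comparison (Il5ra did not) and 8 were at least 2-fold higher in MSC-sEV. Over all 14380 genes that entered, the share called this way was 20.5%, and the genes were picked with this contrast known, so nothing is read from the count. With the mean of CPM per barcode in place of the summed counts, 9 were, as the log2 ratio of Siglecf went from 0.81 to 1.91. Mmp9 went from 6.40 to 12.45 and Cd24a from 3.58 to 5.03. The median log2 ratio was 5.13 for the 9 genes and 0.04 for all. Markers of other leukocytes moved with the library to differing extents. All 10 T cell markers were at least 2-fold higher in MSC-sEV, beside 2 of 3 B cell and 4 of 12 microglia markers with enough counts. Whether capture or makeup of the pools set these levels was not tested.

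**Figure D1:**
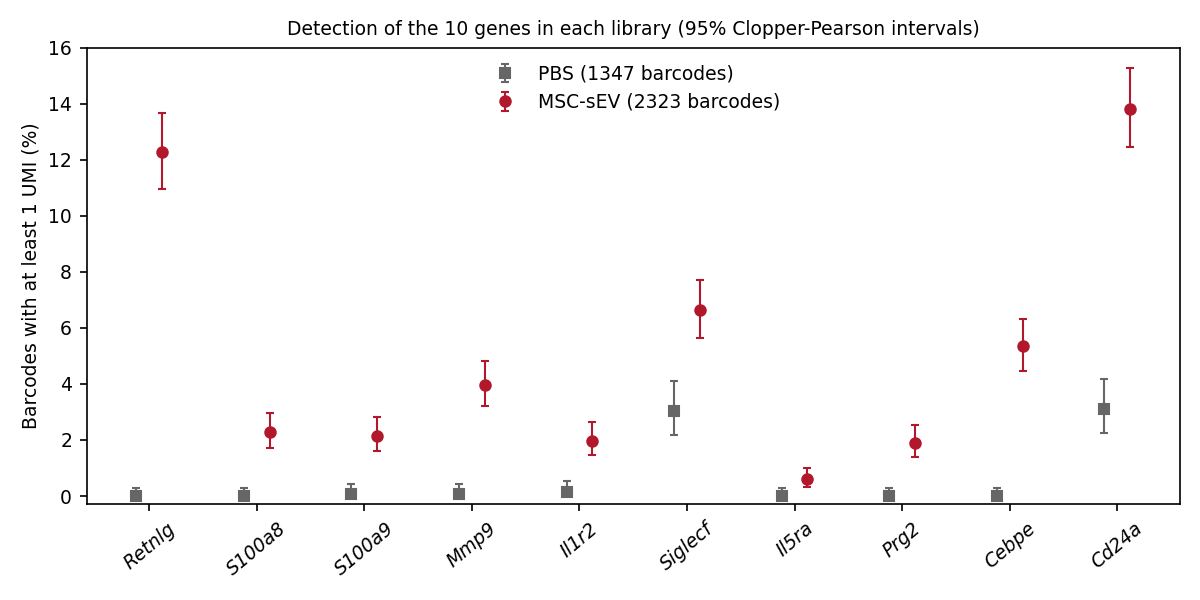
Share of kept barcodes with at least 1 UMI of each of the 10 genes, in percent, in the PBS (grey squares) and MSC-sEV (red circles) libraries, with 95% Clopper-Pearson intervals. Siglecf and Cd24a are the genes with a PBS share above 1%, and the MSC-sEV share is the higher one for each gene.

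Most of this RNA lay in 1 cluster. Barcodes of both libraries were clustered together with the 10 genes left out of the clustering, and 1 cluster passed the rule for granulocyte cells, a Ccr3 UMI in at least 20% of its barcodes and at least 5-fold above the others. It is called the Ccr3 cluster. It held 158 MSC-sEV barcodes (6.80% of the library, 5.81 to 7.90) and 0 PBS barcodes, and its median was 1289 UMIs. By the markers it reached the minimum of 3 for eosinophils (Ccr3, Alox15 and Siglecf). The naming rule thus called it eosinophil-like. Its 10 leading genes held 2 eosinophil markers, Ccr3 and Alox15, beside 2 neutrophil markers, Retnlg and Mmp9, so that name is not used for it here. With at least 1000 UMIs, 500 genes and at most 10% mitochondrial UMIs asked of a barcode, its match held 100 barcodes, 99 of them shared. It then had 4 eosinophil markers (Ccr3, Siglecf, Prg2 and Alox15) and 4 neutrophil markers (S100a9, Retnlg, Cxcr2 and Mmp9), and the naming rule called it neutrophil-like. With finer clustering (Leiden resolution 2), 2 clusters passed the rule for granulocyte cells, with 157 and 67 barcodes. The one of 67 was unnamed, with Ccr3, Siglecf and Alox15 as eosinophil markers and Retnlg, Csf3r and Cxcr2 as neutrophil markers.

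Each of the 10 genes had its highest CPM in the Ccr3 cluster among the 9 classes with at least 20 MSC-sEV barcodes. Retnlg reached 8505 CPM there, S100a9 3325, S100a8 3036 and Cd24a 2322. The levels were 410 for Cebpe, 378 for Mmp9, 143 for Siglecf, 127 for Il1r2, 92.1 for Prg2 and 31.8 for Il5ra. Over other MSC-sEV barcodes, 9 of 9 genes with enough counts were at least 2-fold higher there, beside 10.2% of 13722 genes. They were at least 4-fold higher too, beside 3.72% of all genes, and the median log2 ratio was 6.31 against -0.09 for all. The ratios of these 9 ran from 12.5 (8.81 to 17.4) for Siglecf to 675 (538 to 859) for S100a9. With all barcodes that held a Ccr3 UMI (163) in place of the cluster, 5 of the 10 genes were highest in them. With the 10 genes kept in the clustering, the cluster had 143 barcodes, Retnlg stood at 10146 CPM in it and S100a8 at 310, and Siglecf was no longer among its eosinophil markers.

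Detection ordered the genes in another way than level. In the Ccr3 cluster, Cd24a had a UMI in 89.9% of barcodes, Retnlg in 86.1%, Cebpe in 45.6% and Mmp9 in 33.5%. S100a9, with the second highest CPM, was detected in 15.8% and S100a8 in 10.1%. Siglecf was detected in 20.3%, Prg2 in 15.8%, Il1r2 in 8.86% and Il5ra in 5.06%. The intervals of Prg2, S100a9 and Siglecf overlap, so their order is within counting error. In the 1247 MSC-sEV barcodes of the unnamed retinal clusters, with a median of 2447 UMIs, the shares were 1.76% for Retnlg, 0.642% for S100a8 and for Cd24a, 0.160% for S100a9 and 0.0802% for Siglecf. Cebpe, Prg2 and Il5ra had 0 UMIs there, which allows up to 0.241%. All shares in the Ccr3 cluster were above this background.

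Outside the Ccr3 cluster the genes parted. The cluster held 92.9% of the S100a9 and 92.0% of the S100a8 UMIs of the MSC-sEV library, 68.4% of Mmp9, 62.5% of Il5ra, 62.3% of Retnlg and 60.6% of Cebpe. It held 52.7% of Prg2, 50.3% of Cd24a, 27.8% of Il1r2 and 19.5% of Siglecf. Siglecf had most of its UMIs in microglia-like barcodes, 49 of 64 in PBS (76.6%) and 135 of 231 in MSC-sEV (58.4%). In these barcodes it stood at 74.2 CPM in PBS against 39.9 in MSC-sEV, a ratio of 0.538 (0.386 to 0.763). The share of microglia-like barcodes with Siglecf was 26.2% (18.1 to 35.6) in PBS (median depth 3218 UMIs) and 23.5% in MSC-sEV (5361 UMIs). The class joins 2 clusters, with 67 and 40 PBS barcodes and 173 and 176 MSC-sEV barcodes. Siglecf was in 10.4% of the barcodes of the first in either library. In the second its PBS share was 52.5% (36.1 to 68.5) against 36.4% (29.3 to 43.9) for MSC-sEV, intervals that overlap, with median depths of 9875 and 14390.5 UMIs. Over the whole libraries the direction was the opposite, since Siglecf was 1.75-fold higher in MSC-sEV. The microglia-like class leaves out 2 unnamed clusters with many microglia markers. They held 39 PBS barcodes with 12 such markers and 120 MSC-sEV barcodes with 10, each from 1 library alone.

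Il1r2 had 69 of its 144 MSC-sEV UMIs in an unnamed cluster of 120 barcodes, and 34 of these in 1 barcode. That cluster led with genes of dividing cells and T cells. A further 26 Il1r2 UMIs lay in an unnamed cluster of 206 barcodes with monocyte, macrophage and dendritic cell genes. Cd24a was also detected in that cluster, in 33.5% of barcodes, and in 16.3% of Müller glia-like barcodes, the main glia of the retina. In PBS these glia held 40 of the 59 Cd24a UMIs, at 23.5 CPM and in 17.6% of barcodes, beside 38.2 CPM in MSC-sEV.

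**Figure D2:**
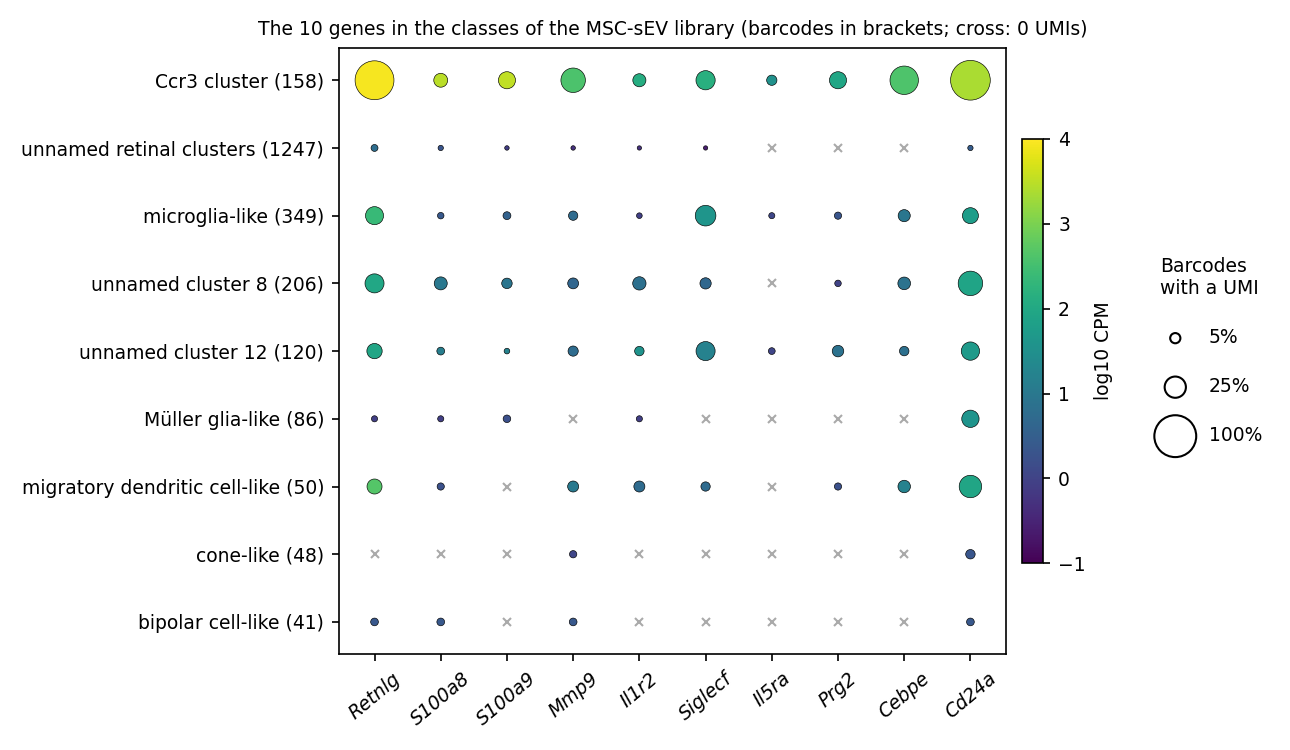
The 10 genes (columns) in the 9 classes with at least 20 MSC-sEV barcodes (rows, number of barcodes in brackets), where circle area grows with the share of barcodes with a UMI, colour gives log10 CPM and a cross marks 0 UMIs. The Ccr3 cluster in the top row holds the highest CPM of every gene, from 31.8 for Il5ra to 8505 for Retnlg.

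Within the Ccr3 cluster, the genes separated by whether a barcode held RNA of Ccr3 or of Cxcr2, the chemokine receptors of the 2 lineages. Neither receptor is among the 10 genes, but this split was made after values were seen, and its groups are a description. A Ccr3 UMI without a Cxcr2 UMI was found in 88 barcodes (median 1212 UMIs), a Cxcr2 UMI without Ccr3 in 16 (median 3748), both in 10 (median 2221) and neither in 44 (median 1144). The last group may include barcodes too shallow to show either receptor, but it also holds a barcode of 19644 UMIs. The part of depth in it was not tested. The folds below set the 88 against the 16 and leave out the 10 with both. Those 10 had 395 Retnlg UMIs in 10 barcodes, 84 of S100a8 in 4 and 108 of S100a9 in 5. In them, 1 barcode held 57 of the S100a8 and 89 of the S100a9 UMIs.

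Retnlg lay on the Ccr3 side. It had 1728 UMIs in the 88 barcodes with Ccr3 (13412 CPM) and 162 in the 16 with Cxcr2 (2693 CPM), a ratio of 4.98 (4.24 to 5.89). Of the 162, 118 came from 1 barcode. Cebpe had 88 and 4 UMIs, a ratio of 10.3 (3.87 to 38.5), and Cd24a 508 and 43, a ratio of 5.52 (4.04 to 7.72). Prg2 had 22 and 0 UMIs, at least 3.42-fold higher with Ccr3, and Il5ra 8 and 0, at least 1.24-fold higher. The lower bound of the interval for Il5ra is 0.797, so its side is not resolved at this depth.

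S100a8, S100a9 and Il1r2 lay on the Cxcr2 side. S100a8 had 0 UMIs in the 88 barcodes with Ccr3 and 858 in the 16 with Cxcr2, a level at least 613-fold higher with Cxcr2. Of the 858, 320 and 305 came from 1 barcode each. S100a9 had 23 and 792 UMIs, 73.8-fold higher with Cxcr2 (48.8 to 117). Il1r2 had 2 and 35 UMIs, a ratio of 37.5 (9.63 to 322) for Cxcr2 over Ccr3. Outside the set, Csf3r had 3 and 103 UMIs, and Alox15, a lipoxygenase of eosinophils, had 120 and 4. Other genes of the lineage lists lay on the opposite side or on both. Among neutrophil genes, Pglyrp1 had 92 and 21 UMIs, 2.05-fold higher with Ccr3 (1.26 to 3.46), and G0s2 129 and 51, a ratio of 1.18 (0.848 to 1.67). Among eosinophil genes, Csf2rb had 27 and 69 UMIs, 5.47-fold higher with Cxcr2 (3.46 to 8.89), and Gata2 2 and 37, the latter in 2 barcodes. For Csf2rb, 1 barcode of the cluster held 34 of 136 UMIs. Gata2 is also on the list of mast cell and basophil markers. Of that list, Mcpt8 had 0 and 18 UMIs, the latter in 2 barcodes, Ms4a2 0 and 7, and Cd200r3 2 and 10. Tpsb2, Mcpt4 and Fcer1a had 0 in both groups.

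Mmp9 and Siglecf were on both sides. Mmp9 had 52 UMIs with Ccr3 and 46 with Cxcr2, 1.89-fold higher per UMI with Cxcr2 (1.25 to 2.87). Siglecf had 27 and 10 UMIs, a ratio of 1.26 (0.591 to 2.92) that includes equal levels. At the depths measured, which were higher with Cxcr2, a neutrophil list gene and an eosinophil list gene were thus found in both groups. At equal depth, given next, Siglecf was in 0 of the 16 barcodes with Cxcr2.

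With each barcode thinned to 500 UMIs, so that depth was equal, Retnlg was detected in 90.9% (82.9 to 96.0) of barcodes with Ccr3 and 31.2% (11 to 58.7) of those with Cxcr2. S100a8 was in 0 of 88 (limit 3.41%) and 56.2% (29.9 to 80.2), and S100a9 in 6.82% and 50.0%. These 3 intervals do not overlap between the groups. Cd24a was in 78.4% (68.4 to 86.5) and 43.8% (19.8 to 70.1) and Cebpe in 23.9% and 6.25%, with intervals that overlap. Intervals also overlap for Il1r2, in 1.14% (0.0288 to 6.17) and 12.5% (1.55 to 38.3), and for Mmp9, in 15.9% and 31.2%. Siglecf was in 10.2% (4.78 to 18.5) and in 0 of 16 (an interval of up to 20.6%). Without thinning, the shares were 94.3% and 50.0% for Retnlg, 0% and 62.5% for S100a8, and 9.09% and 62.5% for S100a9.

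**Figure D3:**
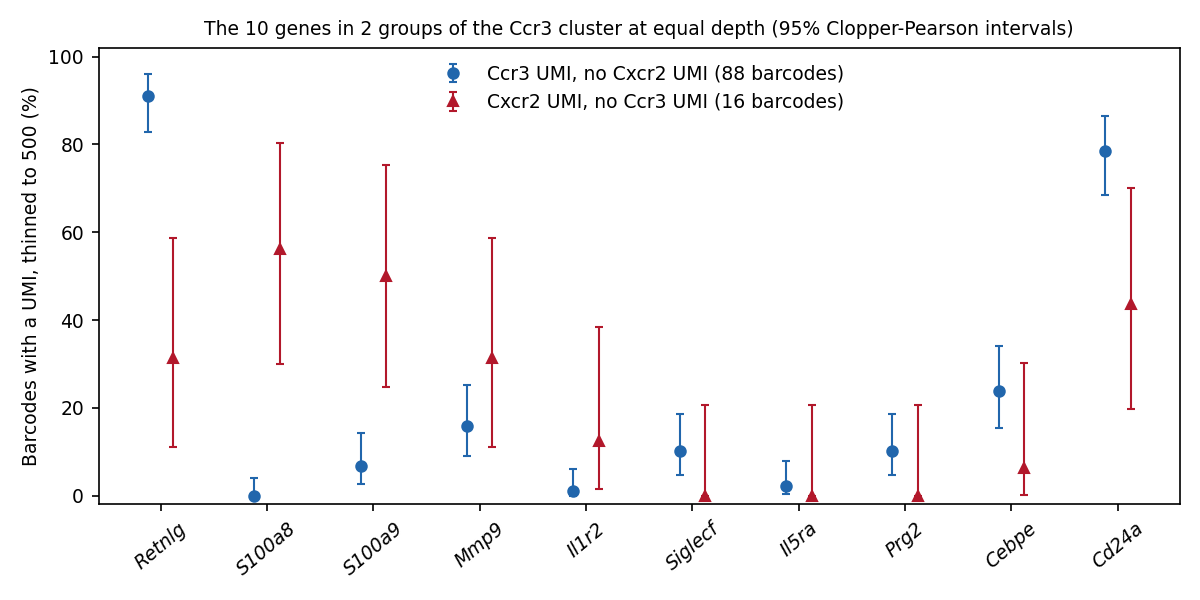
Share of barcodes with a UMI of each of the 10 genes after thinning to 500 UMIs, in percent, for barcodes of the Ccr3 cluster with Ccr3 and no Cxcr2 UMI (blue circles, 88) or Cxcr2 and no Ccr3 UMI (red triangles, 16), with 95% Clopper-Pearson intervals. Retnlg is at 90.9% and 31.2%, and S100a8 at 0% and 56.2%.

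Cell by cell, Retnlg was in 18 of the 25 barcodes of the Ccr3 cluster with an S100a8 or S100a9 UMI and in 118 of the 133 without. In the cluster, 13 barcodes had at least 10 UMIs of S100a8 and S100a9 together, a limit chosen after the values were seen, and they held 90.9% of such UMIs in the MSC-sEV library. Of the 13, 11 had a Cxcr2 UMI, 12 Csf3r, 8 Il1r2 and 4 Ccr3. Retnlg was in 7 of the 13, and these 7 held 1493 of the 1969 S100 UMIs. Of the 12 barcodes with 1 to 9 S100 UMIs, 11 had Retnlg, 9 Ccr3 and 4 Cxcr2. The 133 barcodes with 0 UMIs of both S100 genes included 118 with Retnlg and 85 with Ccr3, beside 11 with Cxcr2. The barcode with most S100 UMIs had 690 and also 118 of Retnlg. The next had 583 and 2 of Retnlg, and the third 152 and 0. The pairing of the genes thus differed between these 3 barcodes. Median depth was 4216 UMIs in the 13 barcodes and 1201 in the 133. With the 10 genes kept in the clustering, 10 of the 13 lay in another cluster, which led with Chil3, Ccl8 and Spp1, and 3 stayed.

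**Figure D4:**
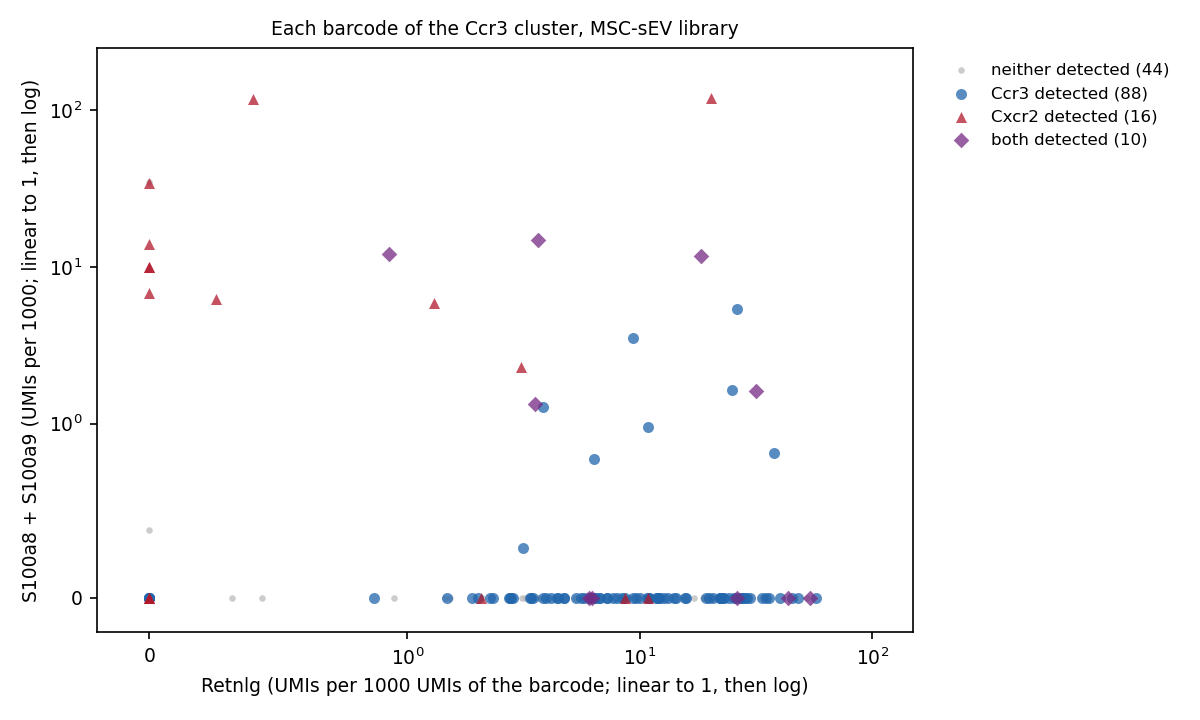
Each point is 1 of the 158 barcodes of the Ccr3 cluster, with Retnlg on the horizontal and S100a8 plus S100a9 on the vertical axis, both in UMIs per 1000 UMIs of the barcode (linear up to 1, then log), by detection of Ccr3 and Cxcr2. The 133 barcodes without S100a8 or S100a9 lie along the bottom, and the 3 barcodes with most S100 UMIs (690, 583 and 152) are triangles, which mark Cxcr2 without Ccr3. Next in UMIs are a diamond with both receptors (146) and a grey point with neither (135), which a triangle nearly hides.

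Pairs of genes were counted in the Ccr3 cluster as well. All 16 barcodes with S100a8 also had S100a9, of which there were 25. Of the 16, 87.5% (61.7 to 98.4) had Cxcr2 and 25% (7.27 to 52.4) had Ccr3, against 8.45% and 66.2% of the barcodes without S100a8. Retnlg was in 9 of the 16 (56.2%, 29.9 to 80.2), against 89.4% (83.2 to 94.0) of those without S100a8. It was in 18 of the 25 with S100a9 (72.0%, 50.6 to 87.9), against 88.7% (82.1 to 93.5), intervals that overlap. Of the 136 barcodes with Retnlg, 68.4% (59.9 to 76.1) had Ccr3 and 13.2% (8.04 to 20.1) had Cxcr2. With at least 2 UMIs asked of each gene, the share of Retnlg barcodes with Ccr3 was 45.0%, and thinned to 500 UMIs it was 46.0%. Retnlg and Cd24a were together in 127 barcodes, 93.4% of those with Retnlg.

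Retnlg was in 86.1% of all barcodes of the cluster, which sets the base for its pairs with eosinophil genes. Of the 25 barcodes with Prg2, 92.0% (74.0 to 99.0) had Retnlg, against 85.0% (77.7 to 90.6) of those without Prg2. Of the same 25, 92.0% had Ccr3 and 4.00% (0.101 to 20.4) had S100a8. All 8 with Il5ra had Retnlg (63.1 to 100), against 85.3% of those without, and 0 had S100a8 (an interval of up to 36.9%). Of the 32 with Siglecf, 29 had Retnlg, 9 had S100a9 and 23 had Ccr3. Retnlg was in 84.9% of the barcodes without Siglecf, within the interval of those with it (75 to 98.0).

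Counted as sets, 53 barcodes of the Ccr3 cluster had an eosinophil gene, and 50 of them (94.3%, 84.3 to 98.8) also had a neutrophil gene. This was close to the 90.5% (83.2 to 95.3) of barcodes without an eosinophil gene, and the intervals overlap. With Retnlg left out and S100a8 or S100a9 asked for, the count was 11 of 53 (20.8%, 10.8 to 34.1). Over the whole MSC-sEV library, 191 barcodes had an eosinophil gene and 92 of these (48.2%, 40.9 to 55.5) a neutrophil gene, against 12.9% of the rest. Retnlg was in 83 of the 191 (43.5%, 36.3 to 50.8). The depths differed, with medians of 9933 and 2815 UMIs, and thinned to 1000 UMIs the first share was 72.3% (57.4 to 84.4). In PBS, 41 barcodes had an eosinophil gene, all through Siglecf, and 0 of them had a neutrophil gene.

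The overlap of the lineages rested on the genes asked for. With a barcode called from at least 2 genes of a marker list, 76 of the 158 were called eosinophil and 75 neutrophil, and 39 were both. With the 10 genes left out of the lists, 56 were called eosinophil, 16 neutrophil and 1 both. Ccr3, by which the cluster was chosen, stays on the eosinophil list and was in 98 barcodes. Alox15 was in 69, and no other gene left on that list was in more than 5. The counts thus restate that choice in part. Most barcodes showed few of the genes: 3 was the most frequent number of the 10 detected, in 50 barcodes, and none of the 158 had more than 7.

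Spearman coefficients over the 158 barcodes, of UMIs per 1000, describe the same structure, with shared depth and sparse counts in each point. S100a8 and S100a9 gave 0.80, S100a9 and Cxcr2 0.55, Retnlg and Cd24a 0.43, and Retnlg and Ccr3 0.38. Retnlg and S100a8 gave -0.32. For Mmp9 the values were 0.01 with Ccr3 and 0.21 with Cxcr2.

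Retnlg was also found in microglia-like barcodes of the MSC-sEV library, 62 of 349 (17.8%), with 796 UMIs. Other genes of the Ccr3 cluster were in these barcodes too. Of the 62 with Retnlg, 67.7% had Cd24a, 46.8% Ccr3 and 37.1% Cebpe, against 2.09%, 0.697% and 1.05% of the 287 without. P2ry12, a microglia gene, was in 59.7% and 59.9%, and Siglecf in 24.2% and 23.3%, with intervals that overlap. Median depths were 5519 and 4853 UMIs. The 62 and the 287 were not split by the 2 clusters of this class. Over both libraries, P2ry12 was in 35.4% of barcodes of the first cluster and 87.5% of the second. Ccr3 was in 0 barcodes of the first, and Retnlg counted as a marker in the second alone. The shares may thus compare unlike mixtures of the 2 clusters.

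Per 100 UMIs of Retnlg, microglia-like barcodes held 24.7 of Cd24a (21.1 to 29.0), 7.04 of Ccr3 (5.27 to 9.23) and 3.89 of Cebpe (2.63 to 5.57). The Ccr3 cluster held 27.3 (25.1 to 29.6), 8.55 (7.44 to 9.79) and 4.82 (4.01 to 5.75), intervals that overlap for each gene. S100a8 differed, at 1.01 (0.432 to 1.99) and 35.7 (33.1 to 38.4). Siglecf differed in the other direction, at 17.0 (14 to 20.4) and 1.68 (1.22 to 2.25). Other classes held these genes beside Retnlg too. For Cd24a, Ccr3 and Cebpe, migratory dendritic cell-like barcodes had 18.6 (13.4 to 25.4), 5.32 (2.87 to 9.09) and 3.42 (1.55 to 6.60). The unnamed cluster of 206 barcodes had 85.2, 10.6 and 8.44, and that of 120 had 57.6, 10.1 and 7.59. Scrublet, a doublet caller, marked 4 MSC-sEV barcodes in all and 0 of the 62, and the part of doublets or of free RNA in these counts was not tested.

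**Figure D5:**
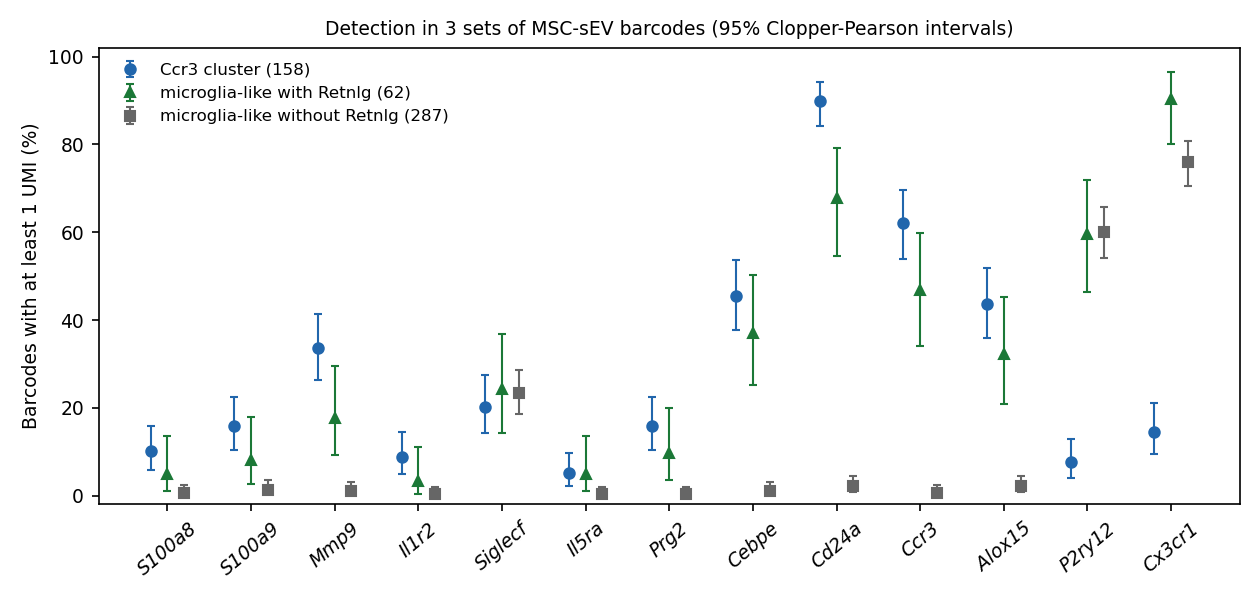
Share of barcodes with a UMI, in percent, for the Ccr3 cluster (blue circles, 158) and for microglia-like MSC-sEV barcodes with (green triangles, 62) or without a Retnlg UMI (grey squares, 287), with 95% Clopper-Pearson intervals. Cd24a, Ccr3 and Cebpe stand at 67.7%, 46.8% and 37.1% with Retnlg and at 2.09%, 0.697% and 1.05% without, while P2ry12 is at 59.7% and 59.9%. The class joins 2 clusters with P2ry12 in 35.4% and 87.5% of barcodes over both libraries, and it was not split here.

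Other genes of both lineages were counted in the Ccr3 cluster by list. Counts below are of genes at least 2-fold higher there than in other MSC-sEV barcodes, beside 10.2% of all genes called higher and 20.8% called lower. Of 22 other neutrophil genes, 14 had enough counts, 13 were higher and 1, Lcn2, was lower. Cxcl2, a neutrophil attractant, had 287 UMIs, G0s2 224, Pglyrp1, a granule protein that binds bacterial walls, 159 and Cxcr2 158. Ly6g, Ngp, Camp and Stfa1 had 0 UMIs in the cluster. Ly6g is the surface marker by which mouse neutrophils are sorted, and Ngp and Camp encode proteins of their specific granules.

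Of 20 other eosinophil genes, 13 had enough counts, 10 were higher and 1 was lower. The 10 include Ccr3, by which the cluster was chosen, so its call was set in advance. They also include Il13, with 10 UMIs in the cluster and 0 without the 3 barcodes of mast cell genes described below. Ccl6, a chemokine of myeloid cells, had 1188 UMIs, Ccr3 229, Cd9 188 and Alox15 170. Epx, Prg3, Ear2, Ptgdr2, Hrh4 and Clec4a4 had 0 UMIs in the cluster. Epx and Prg3 encode granule proteins made while eosinophils mature, as Prg2 does, and Ear2, an eosinophil-associated ribonuclease, had 1661 UMIs in other MSC-sEV barcodes. Each lineage thus had defining genes at 0 beside others that were detected.

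Of 8 genes of immature granulocytes with enough counts, 2 were higher and 4 lower. The higher ones were Cd34, at 2.03 (1.42 to 2.82), and Kit, with 44 of its 45 UMIs in 3 barcodes of mast cell genes described below. Mpo, Elane, Prtn3 and Fcnb, granule genes of early neutrophil precursors, were at 0. The transcription factor list had 7 of 12 higher and 2 lower. It was led by Cebpb, a C/EBP factor of mature myeloid cells, with 373 UMIs and a ratio of 5.15 (4.62 to 5.73). Of 7 genes around the receptors of interleukins 5 and 3 and of GM-CSF, 3 were higher, Csf2rb among them with 136 UMIs and a ratio of 3.48 (2.91 to 4.15). Csf2rb encodes the common chain that pairs with Il5ra, and Il5, Il3 and Csf2, genes of the ligands, had 0 UMIs in the cluster.

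Relatives of the 10 genes were counted in the same way. Of 7 other S100 genes, 1 was at least 2-fold higher, S100a11 with a ratio of 4.22 (3.68 to 4.81), and 3 were lower, S100a4, S100a1 and S100a16. Of 7 Siglec genes, 2 were, Siglece at 10.1 (6.94 to 14.4) and Siglecg at 5.81 (3.36 to 9.47), and 3 were lower. Of 9 genes of the interleukin 1 family, 5 were higher and 1 lower. Il1rn, the receptor antagonist, had 510 UMIs in 78.5% of barcodes and a ratio of 24.8 (22.3 to 27.6). Of 10 metalloproteinase and inhibitor genes, 2 were higher and 5 lower, and the higher ones, Mmp8 and Mmp25, had 3 UMIs each there, with ratios of 4.99 (0.977 to 16) and 4.55 (0.895 to 14.5). Retnla, a relative of Retnlg, had 752 UMIs in 54 barcodes, and its ratio was 4.26 (3.95 to 4.59). Attractants had 2 of 6 higher, Cxcl2 and Ccl7, and 4 lower. For Ccl7, 54 of 58 UMIs lay in 1 barcode, and without it the ratio was 0.184 (0.0500 to 0.472). Cxcl2 had 139 of 287 UMIs in 1 barcode and a ratio of 46.9 (37.3 to 58.9) without it. With the barcode of most UMIs left out for each gene, a setting chosen after values were seen, 12 neutrophil and 9 eosinophil list genes were higher.

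Markers of mast cells and basophils were present in the cluster as well. All 10 with enough counts were at least 2-fold higher there, from few barcodes. Cma1, a mast cell chymase, had 1251 UMIs in 4 barcodes. The 3 barcodes with at least 3 of 4 mast cell proteases held 36 Retnlg, 57 S100a8, 89 S100a9 and 6 Cd24a UMIs and 0 of Siglecf, Il5ra, Prg2 and Cebpe. All of the Retnlg, S100a8 and S100a9 UMIs lay in 1 of them, a barcode of 9907 UMIs with both Ccr3 and Cxcr2. The others, of 19644 and 15521 UMIs, had 0 of these 3 genes. The barcode of 9907 UMIs, with 146 S100 UMIs, is also among the 13 with at least 10 S100 UMIs described above. Without these 3 barcodes, a setting chosen after the data were seen, Retnlg stood at 9792 CPM in the cluster and S100a8 at 3332. Of the mast cell and basophil markers, by which these barcodes were picked in part, 6 of 10 were then higher and 1 lower, and Kit had 1 UMI, a ratio of 0.490 (0.0123 to 2.78).

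By the pattern over the 16 clusters with at least 20 MSC-sEV barcodes (Pearson r of log2(CPM + 10), 12921 genes with at least 50 UMIs), Cebpe was most like Ccr3, Alox15 and Gapt (r 0.996, 0.991 and 0.990). Retnlg was most like Il1rn, Abcg3 and Rhox8 (0.98, 0.98 and 0.97), and S100a8 most like S100a9, Cxcr2 and Gm5483 (0.99, 0.98 and 0.98). S100a9 was most like Prg2, S100a8 and Lrg1. In the Ccr3 cluster, S100a9 shared 4 barcodes with Prg2 and 16 with S100a8. Mmp9 was most like Cebpe, 9830107B12Rik and Serpinb2, and Prg2 most like Cyp11a1, Serpinb2 and S100a9. Cd24a was most like P2ry14, Akr1c13 and Il17ra, and Il1r2 most like Il1rl1, Gzmb and Ikzf3. Siglecf was most like Armc3, Adora3 and Arap3, at 0.97 each. These values are across clusters of 2 libraries and share library and depth.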

How the data were processed

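Per the labels' protocols, retinas of 6 mice per group were pooled, digested and enriched on CD45 beads. A droplet kit for 3′ ends was used, and reads were mapped to mm10 with Cell Ranger 3.0.2. The values deposited by the authors are counts of UMIs per gene and barcode. As for the annotation release, it is not given in the sources used here, and 30934 of 31053 gene IDs matched GENCODE M21.

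Kept barcodes were clustered with scanpy 1.11.5 on 2000 variable genes without mitochondrial, ribosomal protein and sex-linked genes and without the 10 genes. Settings were 30 principal components, 20 neighbours and Leiden resolution 1. A cluster was named from at least 3 markers of a class seen in at least 20% of barcodes and 2-fold above the rest. It stayed unnamed if another class had more markers among its 10 leading genes, or if it was shallow without a marker of its own there. No cluster met the rule for rods. The background of free RNA, planned in rods, thus came from 6 clusters with Ptprc in under 5% of barcodes, chosen after values were seen. Scrublet, at an expected rate of 2% per library, marked 3 PBS and 4 MSC-sEV barcodes (0.223% and 0.172%), which were kept.

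The 10 genes, the lists and the settings were chosen with earlier results of these data known. Named genes were the 10 genes, in each list the 4 with most UMIs in the Ccr3 cluster and those at 0, and the 3 genes most like each member in pattern. Other genes named were chosen after their values were seen. Folds against 0 use a floor of 3 counts over the group. In counts of genes, a gene at 0 entered at that bound, or as equal where the bound passed equality. A gene entered a count with at least 20 UMIs. Thinning drew UMIs without replacement, with a fixed seed. The ratio intervals were tested on simulated counts. Alternatives changed the cell filter, doublets, denominator, weights, resolution, variable genes, detection limit, depth, fold and count minimum. Leaving out barcodes with mast cell markers, or each gene's highest barcode, was added after the data were seen.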

Additional observations from a re-analysis of the deposited data

Results flagged for a closer look

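In barcodes that the cell filter left out and no comparison above used, 4 of the 10 genes had more MSC-sEV UMIs than the upper 95% Poisson limit of their PBS count. In 270 left-out MSC-sEV barcodes, Retnlg had 143 UMIs, Cd24a 38, Cebpe 8 and Mmp9 6. In 329 left-out PBS barcodes the counts were 0 for Retnlg, Cebpe and Mmp9 and 5 for Cd24a. S100a8 and S100a9 had 2 UMIs each, and Il1r2 and Prg2 1 each, in the left-out MSC-sEV barcodes, within that limit, and 0 in PBS.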

How the results depend on the processing

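The Ccr3 cluster had 158 barcodes, and 100 with the stricter cell filter. All 10 genes were highest in it, against 5 with barcodes that held a Ccr3 UMI in its place, and 9 or 10 under the other settings. At Leiden resolution 2, the 2 clusters that passed the rule held 224 barcodes together. Over these, Retnlg stood at 3676 CPM in place of 8505 and S100a8 at 993 in place of 3036. The share of eosinophil gene barcodes with a neutrophil gene, 48.2% in the MSC-sEV library, was 39.7% with at least 2 UMIs of a gene, 65.6% thinned to 500 UMIs, 72.3% thinned to 1000 UMIs and 95.4% in barcodes with a Ccr3 UMI. The share of Retnlg barcodes with Ccr3, 68.4%, was 45.0%, 46.0% and 58.1% under the first 3 of these settings. The cause was not tested. Of 60 log2 ratios between libraries, 56 stayed within their intervals, 4 moved and 0 reversed direction. Of 90 CPM values in the cluster 52 stayed and 38 moved, 25 of them down. Cluster ratios of some list genes did change direction. Without its highest barcode, Ccl7 went from 2.53 to 0.184 (0.0500 to 0.472). Without the barcodes of mast cell genes, Kit went from 18.9 to 0.490, with an interval (0.0123 to 2.78) that includes equal levels. Il13 then went from 2.24 to 0 UMIs, a ratio of at most 0.786. No paired analysis was possible because each group had 1 library. Doublets, free RNA and the spread between mice limit these values, and genes at 0 in the cluster could lie below 3 UMIs in its 158 shallow barcodes.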
